A study of Rattus norvegicus with 8 samples.

Results

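The genes described here are 9 rat genes of the mitogen-activated protein kinase (MAP kinase) cascades: the adaptor Shc1, the MAP kinase kinases Map2k1 and Map2k2, the ERK gene Mapk3, the JNK genes Mapk8, Mapk9 and Mapk10, the JNK scaffold Mapk8ip3 and the p38 gene Mapk14. They were found by the gene name that the array design gives a probe, which picked 17 of 41012 probes. Mapk8, Mapk9 and Mapk14 each had 3 probes, Shc1 and Mapk8ip3 had 2, and the other genes had 1.

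RNA came from pyramidal neurons captured by laser from the CA3 subfield of the hippocampus of male Sprague-Dawley rats. Dying neurons were those that took up Fluoro-Jade, a stain of degenerating neurons, 24 h after a moderate fluid percussion injury of the brain, and surviving neurons were unstained neurons next to them, with about 600 neurons pooled from several rats for a sample of either kind. Sham rats were operated on without the injury and naïve rats were not operated on. Each of the 4 groups had 2 single-colour arrays, and the methods describe linear amplification of the RNA before labelling. Strain and sex come from the methods, and ages were not given in the sources used here. The stain alone made a neuron dying or surviving, so that a pool is a mixture of neurons at unknown stages.

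A MAP kinase is switched on by a MAP kinase kinase, which is itself switched on by a kinase above it, and adaptors and scaffolds bring these proteins together. ERK is best known for carrying signals of growth factors and synaptic activity, and JNK and p38 for answering to stress and cytokines. These enzymes are controlled mostly by phosphorylation, which an RNA array does not measure.

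Levels are log2 values of the background-subtracted signal of a probe over the median of its array, so that 0 is the median probe. Levels of different probes cannot be compared, since probes differ in how well they bind. A probe entered the test of a comparison if either group had both of its arrays well above background, and the threshold was an adjusted p of 0.05 in limma, over all probes tested. Naïve and sham arrays shared 1 slide and the arrays of injured rats shared another, with a different protocol of the image analysis, so an effect of injury cannot be told apart from one of the slide wherever an injured group is set against sham. Surviving and dying neurons were compared within a slide. Dying replicate 1 was dim for its slide, with a median signal of 19.4 against 53.0 in dying replicate 2 and 52.4 and 48.3 in surviving neurons. Sham arrays had 16.5 and 16.4 and naïve arrays 28.8 and 22.7, on the other slide. Dying replicate 1 stands apart in several results, and the plot of differences between surviving and dying neurons shows each member with and without it. In pooled RNA of captured tissue, fewer cells of a type and less RNA per cell cannot be told apart.

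Between surviving and dying neurons, 0 of the 15 member probes tested passed the threshold, and neither did any of the 27393 probes tested on the whole array (0.0%). At an unadjusted p under 0.05 limma gave 6 of the 15 member probes and 5528 of all probes. With 2 arrays a group an exact permutation test cannot give a p under 0.333. The difference was above 0 for 15 of 15 member probes, with a median of 1.33 against 0.15 over all probes tested and 0.38 over those with a RefSeq accession. Of the 15 probes, 6 were tested only because surviving neurons measured them well, which favours differences above 0. Over the 9 member probes measured well by each of the 4 arrays the median was 0.87, against 0.03 over 21262 such probes and 0.22 over the 12917 of them with a RefSeq accession. Without dying replicate 1 the median over the 15 probes was 0.53. Without dying replicate 2, which leaves the dim array alone, 5043 of 28210 probes passed on the whole array and 4 of them were member probes, so such a pass is not particular to the members.

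Both surviving arrays lay above both dying arrays in 9 of the 15 member probes, against 30.6% of all probes tested and 37.3% of those with a RefSeq accession. Of the 9 member probes measured well by each of these arrays 5 did, against 27.9% of such probes. No member probe had both dying arrays above both surviving arrays. The methods describe a filter on background and on replicates and then ask for 2-fold changes against sham. The paper's results also count genes over 2-fold between dying and surviving neurons. With such a filter (well above background on all 4 arrays, replicates within 1.5-fold of each other) and the 2-fold limit between surviving and dying means, 0 of 9 member probes were counted, against 4.97% of 21262 probes. The limit on replicates was met by 6 of the 9 in surviving and by 4 of the 9 in dying neurons. In the 4 dying and surviving arrays, the spread was wider between the dying arrays: the median gap between replicates of the member probes measured on both was 0.81 in dying and 0.39 in surviving neurons, close to the 0.81 and 0.37 of all such probes.

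**Figure D1:**
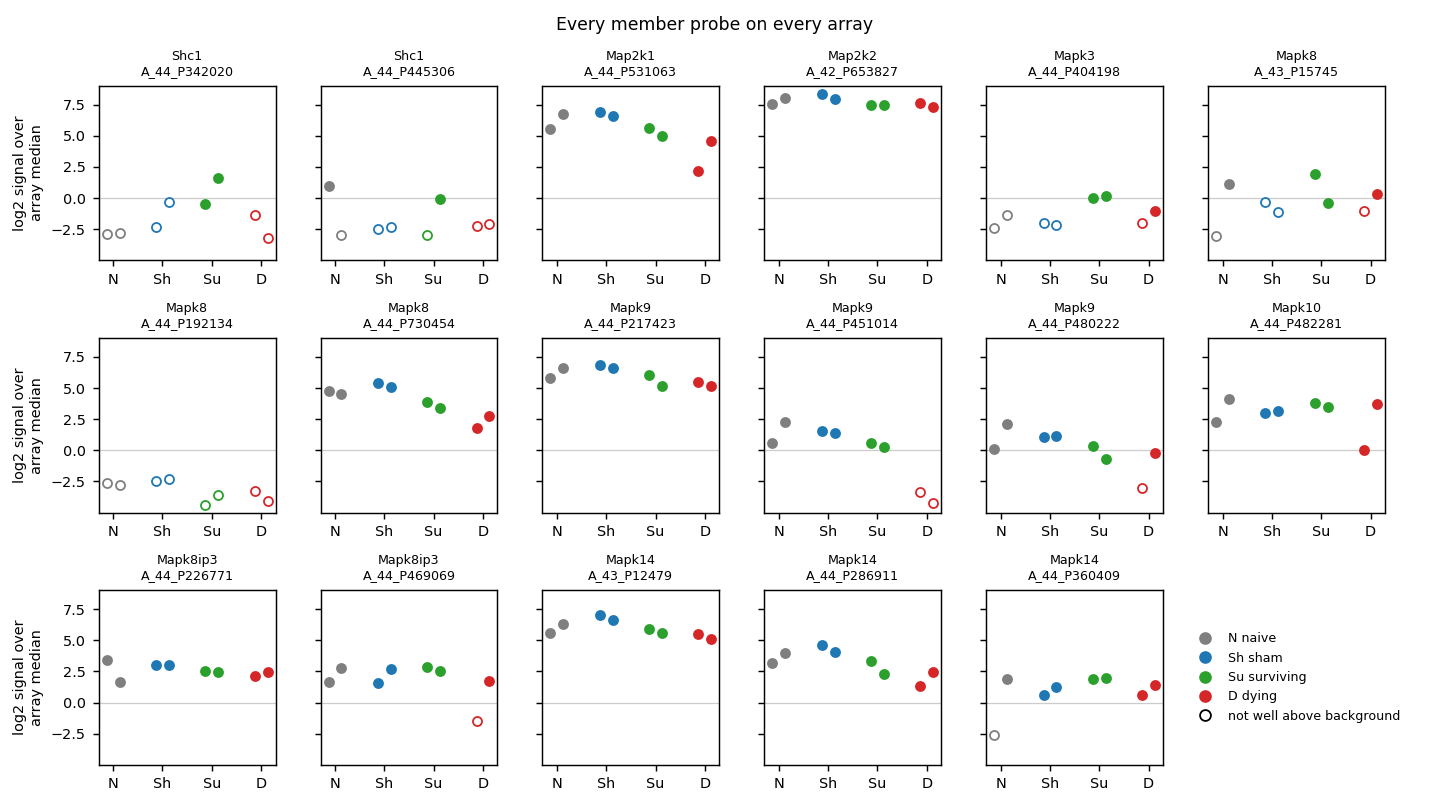
Level of each of the 17 member probes on each of the 8 arrays (vertical axis, log2 signal over the array median; horizontal axis, the group, with replicate 1 to the left of replicate 2). Open circles were not well above background. Map2k2 stays within a narrow band, Mapk9 A_44_P451014 is open in both dying arrays, and Mapk10 has 1 low dying array.

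Shc1 encodes an adaptor that links activated receptors to Ras, at the top of the ERK cascade. Its probe A_44_P342020 (NM_053517) read -0.48 and 1.59 (surviving) and -1.32 and -3.22 (dying), with -2.33 and -0.29 (sham) and -2.84 and -2.78 (naïve). Only the 2 surviving arrays were well above background, and both lay above both dying arrays, while the higher sham array reached above the lower surviving array. Surviving neurons were at least 4.78-fold above dying neurons, and the limma difference of 2.83 did not pass the threshold (adjusted p 0.175). The bound against sham was at least 1.72-fold (adjusted p 0.203 for the difference of 1.865). Both bounds rest partly on surviving replicate 2, and replicate 1 alone would leave none against sham. The other Shc1 probe, A_44_P445306, was well above background only on naïve replicate 1 (0.95) and surviving replicate 2 (-0.10), and it was tested in no comparison.

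Map2k1 and Map2k2 encode MEK1 and MEK2, the kinases that switch on ERK, and their probes did not run alike. Map2k1 (A_44_P531063, NM_031643) read 5.55 and 6.73 (naïve), 6.91 and 6.61 (sham), 5.61 and 4.97 (surviving) and 2.19 and 4.55 (dying). All 8 arrays measured it well, and both dying arrays lay below all 6 others, with dying replicate 1 lowest. The difference between surviving and dying neurons was 1.92 (SE 0.81, adjusted p 0.236). It was 0.74 without dying replicate 1, and 3.102 without dying replicate 2. Map2k2 (A_42_P653827, NM_133283) read 7.53 and 8.04 (naïve), 8.39 and 7.94 (sham), 7.499 and 7.48 (surviving) and 7.63 and 7.34 (dying). The surviving arrays lay between the dying arrays, and the difference was 0.004 (SE 0.48, adjusted p 0.998), which is far within the spread.

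Mapk3 encodes ERK1, a MAP kinase that MEK1 and MEK2 phosphorylate. Its probe A_44_P404198 (NM_017347) read 0.01 and 0.21 (surviving), -1.97 and -1.02 (dying), -2.00 and -2.16 (sham) and -2.41 and -1.36 (naïve). Both surviving arrays and dying replicate 2 were well above background, and the surviving arrays lay above all 6 others. Against dying neurons, measured on 1 of 2 arrays, the difference was 1.61 (SE 0.57, adjusted p 0.182). Against sham, with no array well above background, surviving neurons were at least 1.27-fold higher. The adjusted p of 0.0386 belongs to the limma difference of 2.19 (SE 0.57), which uses these sham values, and not to the bound. This was the 1 member probe of 15 that passed between surviving neurons and sham. Of the 15, 3 were tested only because surviving neurons measured them well, this probe among them, which favours differences above 0. Over all 26909 probes tested there, 5.55% passed with higher values in surviving neurons and 15.5% in either direction. The call was lost with any 1 of the 4 arrays left out, with 7 of the 12 alternatives in all, and it rests on a probe close to background.

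**Figure D2:**
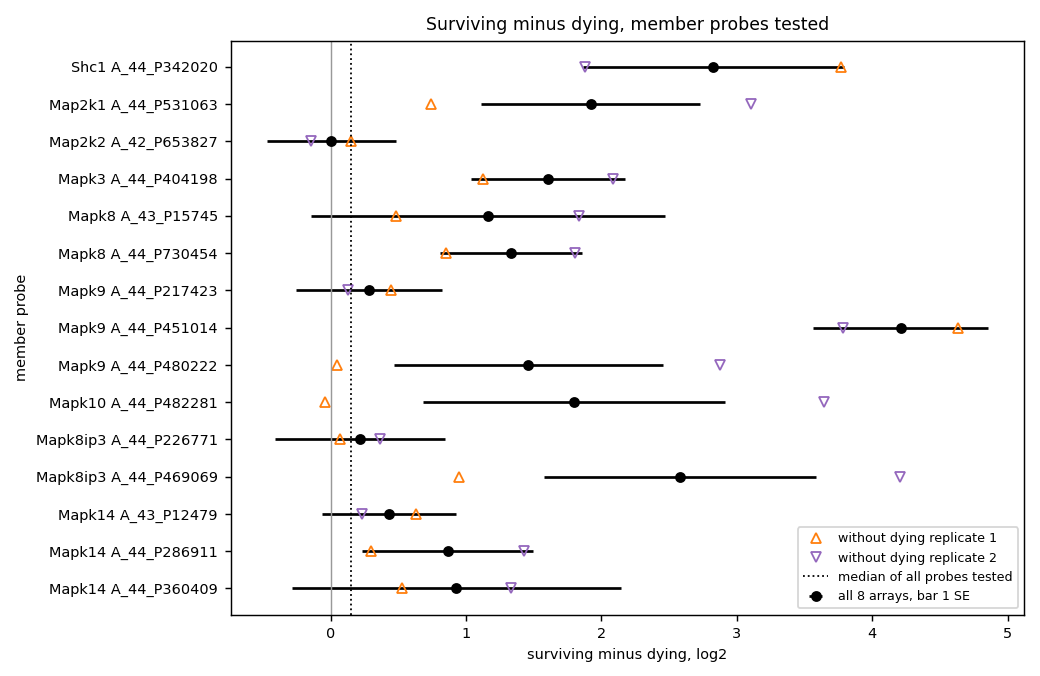
Difference between surviving and dying neurons for the 15 member probes tested (horizontal axis, log2, black points with bars of 1 SE), and the same without either dying array (triangles). The dotted line is the median of all probes tested. Where a dying array was not well above background the position is not exact. Map2k1, Mapk10, Mapk8ip3 A_44_P469069 and Mapk9 A_44_P480222 move far toward 0 without dying replicate 1, and Mapk9 A_44_P451014 does not.

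Mapk8, Mapk9 and Mapk10 encode the JNK enzymes, which phosphorylate the transcription factor Jun, and Mapk10 is the form known to be mostly neuronal. The brightest Mapk8 probe, A_44_P730454 (XM_341399), read 4.77 and 4.49 (naïve), 5.44 and 5.11 (sham), 3.85 and 3.36 (surviving) and 1.80 and 2.75 (dying). No group overlapped another, in the order sham, naïve, surviving and dying. The difference between surviving and dying neurons was 1.33 (SE 0.52, adjusted p 0.213). The probe A_43_P15745 read 1.94 and -0.37 (surviving) and -1.05 and 0.30 (dying), so that the groups overlapped, with 1 of 2 dying arrays well above background. The third Mapk8 probe, A_44_P192134, was well above background on 0 of 8 arrays.

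The 3 Mapk9 probes (NM_017322) disagreed in size. A_44_P217423 read 6.05 and 5.16 (surviving) and 5.48 and 5.16 (dying), with 6.88 and 6.57 (sham) and 5.84 and 6.60 (naïve), and surviving and dying neurons overlapped (difference 0.29, SE 0.54, adjusted p 0.802). A_44_P451014 read 0.63 and 0.23 (surviving) and -3.36 and -4.21 (dying), with 1.56 and 1.38 (sham) and 0.59 and 2.25 (naïve). It was well above background on every array but the 2 dying arrays. Surviving neurons were at least 4.45-fold above dying neurons (adjusted p 0.0956 for the difference of 4.21), and this probe had the lowest adjusted p of the 15. A_44_P480222 read 0.36 and -0.68 (surviving) and -3.03 and -0.21 (dying), and was well above background on 1 of 2 dying arrays. Its groups overlapped, and the difference was 1.46 with both dying arrays and 0.05 without dying replicate 1.

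Mapk10 (A_44_P482281, NM_012806) read 2.26 and 4.11 (naïve), 3.01 and 3.18 (sham), 3.80 and 3.50 (surviving) and 0.01 and 3.70 (dying). Dying replicate 2 lay between the surviving arrays, and dying replicate 1 was the lowest of the 8 arrays. The difference of 1.80 (SE 1.12, adjusted p 0.398) rests on that array: it was -0.04 without dying replicate 1 and 3.65 without dying replicate 2.

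Mapk8ip3 encodes a scaffold that binds JNK and the motor protein kinesin. Its probe A_44_P226771 (XM_220232) read 2.56 and 2.49 (surviving), 2.16 and 2.46 (dying), 3.02 and 2.99 (sham) and 3.41 and 1.63 (naïve). Surviving and dying neurons did not overlap, but by a narrow margin (difference 0.22, SE 0.63, adjusted p 0.880). The probe A_44_P469069 read 2.86 and 2.52 (surviving) and -1.52 and 1.74 (dying), with dying replicate 1 not well above background. Its difference of 2.58 (SE 1.01, adjusted p 0.211) was 0.95 without dying replicate 1.

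Mapk14 encodes p38 alpha. Its brightest probe, A_43_P12479 (U73142), read 5.62 and 6.29 (naïve), 6.999 and 6.63 (sham), 5.89 and 5.55 (surviving) and 5.49 and 5.09 (dying). The surviving arrays lay just above the dying arrays (difference 0.43, SE 0.50, adjusted p 0.662), and sham lay above all 6 others. A_44_P286911 (NM_031020) read 3.30 and 2.25 (surviving) and 1.35 and 2.47 (dying), which overlap, with 4.61 and 4.06 (sham) and 3.14 and 3.96 (naïve). A_44_P360409, with the same accession, read 1.92 and 1.99 (surviving), 0.62 and 1.43 (dying) and 0.57 and 1.24 (sham). The differences between surviving and dying neurons were 0.87 (SE 0.63) and 0.93 (SE 1.22) for these 2 probes, and 0.30 and 0.53 without dying replicate 1. The first was 0.34 without surviving replicate 1.

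Set against sham, dying neurons had 5 member probes past the threshold out of 12 tested, and 5 of the 5 were lower in dying neurons. Over all 25628 probes tested 26.9% passed with lower values in dying neurons, 29.7% of the 15256 with a RefSeq accession did, and 40.1% passed in either direction. The scaling puts the median probe of each array at 0, so the median of -0.47 over all probes tested belongs to those probes. It is not a shift of the whole array. Of the 12 member probes, 3 were tested only because sham measured them well, which favours differences below 0. The median of the 12 was -1.77. Over the 9 member probes that each of the 4 arrays measured well it was -1.41, against -0.91 over all such probes and -1.10 over those with a RefSeq accession. Surviving neurons had a median of -0.43 over all probes tested against sham and -0.68 over the 15 member probes tested. The sign of the latter turns with the scaling. That median was 0.10 under the 75th percentile, 0.14 under quantile normalization, 0.29 under normexp and 0.20 with the deposited series values. The medians of all probes tested under these 4 were 0.35, 0.18, 0.09 and 0.45. The median of the members in dying neurons stayed below 0 under these 4, from -0.83 to -1.07. Under the array median, the difference between surviving neurons and sham had a median of -1.07 over the 12 member probes that each of their arrays measured well. It was -0.825 over all such probes and -0.72 over those with a RefSeq accession. These comparisons use the same sham arrays, so they are set side by side and not against each other.

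Mapk9 A_44_P451014 was tested here only because sham measured it well. It was at least 9.15-fold lower in dying neurons, where no array measured it well. The adjusted p of 0.00212 belongs to the limma difference of -5.25 and not to this bound. That difference uses dying values that were not well above background. This call held without each of the 4 arrays in turn. Mapk8 A_44_P730454 fell, with a difference of -3.00 (SE 0.52, adjusted p 0.00544), which is -2.53 relative to the median of all probes tested. The call was lost without sham replicate 1. Between surviving neurons and sham this probe differed by -1.67 (adjusted p 0.0637).

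Map2k1 fell by 3.39 in dying neurons (SE 0.81, adjusted p 0.0145), or -2.92 relative to the median, and differed by -1.47 in surviving neurons (adjusted p 0.227). Its difference in dying neurons was -2.21 without dying replicate 1 and -4.57 without dying replicate 2. The Mapk14 probes A_44_P286911 and A_43_P12479 fell by 2.43 (SE 0.63, adjusted p 0.0194) and by 1.52 (SE 0.50, adjusted p 0.0407). The corresponding differences of surviving neurons were -1.56 (adjusted p 0.121) and -1.09 (adjusted p 0.156). Without either sham array or without dying replicate 1, the calls of Map2k1 and of both Mapk14 probes were lost, and the call of A_43_P12479 was also lost without dying replicate 2. Of 13 alternatives in all, A_43_P12479 kept its call in 2, and lost it under the 75th percentile, quantile normalization (difference -0.27), the series values and the replicate block (adjusted p 0.0728) among others. A_44_P286911 kept its call in 7 of 13 and Map2k1 in 8 of 13, and both lost it under quantile normalization. Whether the difference from sham is larger in dying than in surviving neurons is the comparison of these 2 groups given above, where no member passed.

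The third Mapk14 probe did not follow the others: A_44_P360409 differed from sham by 0.12 in dying (adjusted p 0.941) and by 1.05 in surviving neurons (adjusted p 0.561). Mapk9 A_44_P217423 differed by -1.41 in dying neurons (adjusted p 0.0667) and A_44_P480222 by -2.72 (adjusted p 0.0577, or 0.0432 with the replicate block), measured on 1 of 2 dying arrays. The latter was -1.31 (adjusted p 0.308) without dying replicate 1, the array that did not measure it. Map2k2 differed by -0.68 in both (adjusted p 0.267 in dying and 0.336 in surviving neurons), or by -0.21 and -0.25 relative to the median of all probes tested. Its sign turned to 0.10 in surviving and 0.04 in dying neurons under the 75th percentile.

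The direction against sham depends on the scaling for the whole array. Of the probes that passed between surviving neurons and sham, 64.2% were lower under the array median, 25.7% under the 75th percentile and 41.1% under quantile normalization. For dying neurons these shares were 67.1%, 40.4% and 43.9%. The median of all probes tested moved from -0.43 to 0.35 for surviving and from -0.47 to 0.25 for dying neurons under the 75th percentile. Mapk8 A_44_P730454 and Mapk9 A_44_P451014 passed with lower values in dying neurons under the array median, the 75th percentile, quantile normalization and the deposited series values. Under normexp background correction 0 of all 25628 probes passed.

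**Figure D3:**
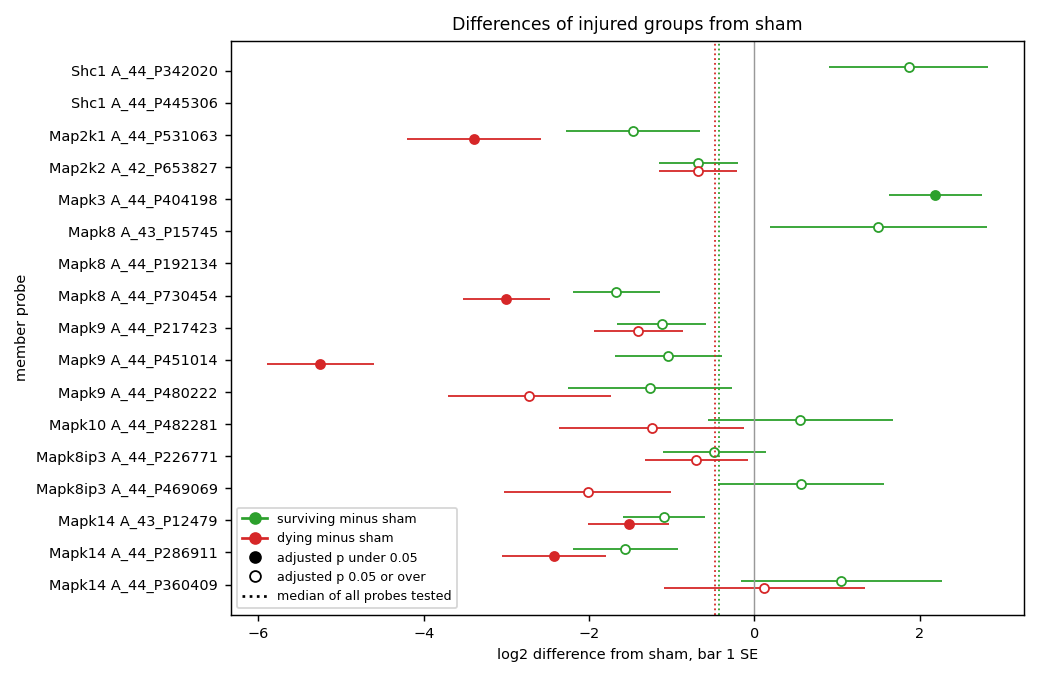
Difference from sham of surviving (green) and dying neurons (red) for each member probe tested (horizontal axis, log2, bars of 1 SE). Filled circles passed the threshold, and dotted lines are the medians of all probes tested. The 5 filled red circles lie left of the dotted lines, and the 1 filled green circle is Mapk3.

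Sham and naïve neurons shared a slide, and 0 of 12 member probes tested passed between them, as did 0 of 20679 probes in all (0.0%), with 819 at an unadjusted p under 0.05 in limma and 0 of these among the members. Differences of the members ran from -0.10 to 1.25, with a median of 0.50 against 0.41 over all probes tested. Without naïve replicate 1 the median was 0.077, against 0.03 over all probes. The median gap between the naïve replicates was 1.13 over the 11 member probes measured on both and 0.70 over all 19574 such probes, against 0.32 and 0.33 in sham.

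In the order of group means, sham was highest and dying lowest for 8 of the 17 probes: the brightest probes of Mapk8, Mapk9, Mapk14, Map2k1, Map2k2 and Mapk8ip3, Mapk9 A_44_P451014 and Mapk14 A_44_P286911. Surviving neurons were highest for 6, those of Mapk3, Mapk10, Shc1 A_44_P342020, Mapk8 A_43_P15745, Mapk8ip3 A_44_P469069 and Mapk14 A_44_P360409. Over all 40984 probes with a value in each group these shares were 25.5% and 14.2%. Under the 75th percentile the counts were 5 and 8 of the 17 (14.5% and 26.2% of all probes), and under quantile normalization 3 and 7 (15.0% and 21.1%), so the order depends on the scaling.

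Other genes of the cascades were taken from lists by role, with the brightest probe of each gene. Of 98 genes listed, 85 were on the array and 68 were tested between surviving and dying neurons, where 0 passed, with 8 at an unadjusted p under 0.05 in limma, a smaller share than the 20.2% of all probes. Their median difference was 0.22, against 0.15 over all probes and 0.38 over those with a RefSeq accession. Medians were 1.24 over 7 scaffolds, 0.89 over 3 MAP2 kinases, 0.71 over 12 adaptors and Ras genes, 0.50 over 12 MAP3 kinases, 0.41 over 12 MAP kinase phosphatases, 0.21 over 5 other MAP kinases, -0.09 over 13 nuclear targets and -0.38 over 4 downstream kinases. The order of the lists rests on dying replicate 1. Without it the medians were 0.24 for scaffolds, 0.55 for MAP2 kinases, 0.42 for adaptors and Ras genes and 0.29 for MAP3 kinases. They were 0.33 for MAP kinase phosphatases, 0.58 for other MAP kinases, 0.35 for nuclear targets and -0.45 for downstream kinases. Without dying replicate 2 instead, the median of other MAP kinases was -0.64.

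Among genes with both surviving arrays above both dying arrays, Map2k6, which encodes a kinase that switches on p38, read 5.24 and 4.56 (surviving) against 1.42 and 3.03 (dying) (difference 2.68, SE 0.73, adjusted p 0.145). Map3k7, the kinase TAK1, read 2.90 and 2.62 against 0.80 and 1.23 (1.74, SE 0.50, adjusted p 0.148). Spag9, a JNK scaffold related to Mapk8ip3, differed by 1.58 (SE 0.52, adjusted p 0.170). The stress-induced transcription factor Atf3 lay the other way, with 3.54 and 3.87 (surviving) against 6.03 and 5.76 (dying) (-2.19, SE 0.68, adjusted p 0.156). The ribosomal S6 kinase gene Rps6ka1 read 5.07 and 4.75 against 7.28 and 6.21 (-1.84, SE 0.52, adjusted p 0.147), and Map3k6 differed by -2.69 (SE 1.002, adjusted p 0.199).

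Against sham, 58 list genes were tested in dying neurons, of which 16 passed as lower, beside 26.9% of all probes, and 7 as higher, beside 13.2%. Pea15 fell by 3.75 (adjusted p 0.00825), with 1 of 2 dying arrays well above background. Map2k6 fell by 3.45 (adjusted p 0.00976), Map3k7 fell by 3.06 (adjusted p 0.00468), Spag9 fell by 2.30 (adjusted p 0.0124), Grb2, the adaptor that Shc1 binds, fell by 2.24 (adjusted p 0.0133) and the growth-responsive factor Egr1 fell by 2.47 (adjusted p 0.00936). The 7 that rose were Atf3 by 4.51 (adjusted p 0.00372), Ptpn7 by 4.42 (adjusted p 0.00940, with 1 of 2 sham arrays well above background), Rps6ka1 by 1.69 (adjusted p 0.0349), Mapkapk2 by 1.66 (adjusted p 0.0290), and Elk1, Fosl2 and Map3k1, which no sham array measured well. In surviving neurons 68 were tested, of which 3 passed as higher and 4 as lower, beside 5.55% and 9.95% of all probes, and the genes are named here after their values were seen. The 3 were again Map3k1, Fosl2 and Elk1, and the 4 were Mapk6 (-3.07), Sos1 (-2.13), Map3k12 (-2.06) and Egr1 (-1.81).

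**Figure D4:**
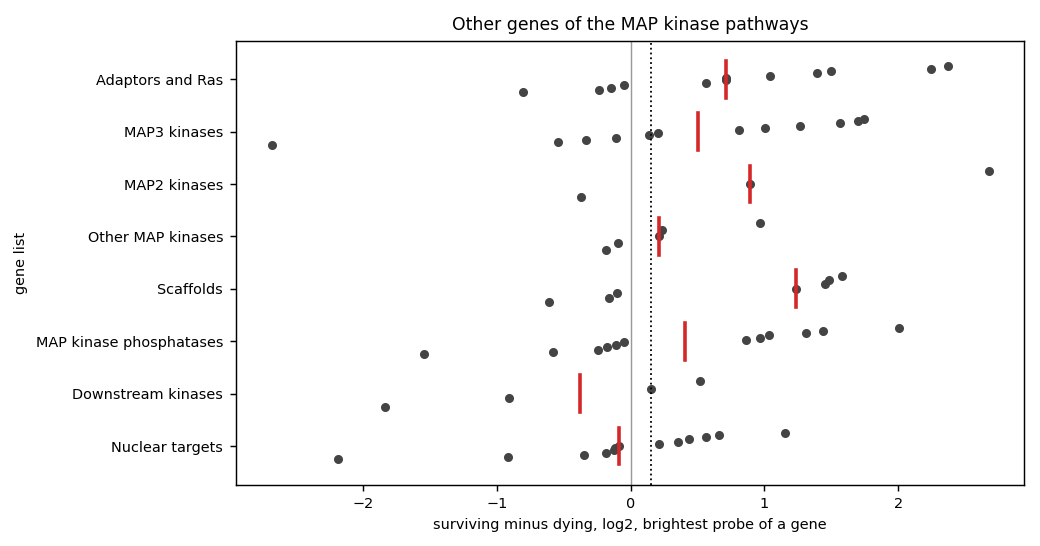
Difference between surviving and dying neurons of the other cascade genes tested, by list (horizontal axis, log2, 1 point a gene at its brightest probe). Red bars are list medians and the dotted line is the median of all probes tested. The scaffold median of 1.24 becomes 0.24 without dying replicate 1.

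Markers of other cells differed between arrays. The 9 listed genes of microglia and macrophages summed to 1935 and 1057 times the array median in dying neurons, 305.7 and 337.9 in surviving, 263.6 and 241.8 in sham and 120.0 and 252.9 in naïve neurons. C1qb read 9.80 and 8.77 in the dying arrays, and C1qa, Tyrobp and Cd68 were also higher in both than in any other array. Aif1, Itgam, Csf1r, Cx3cr1 and Ptprc were not. Csf1r read 1.16 and 1.85 (dying), 1.89 and 0.735 (surviving) and 2.30 and 1.40 (sham). Cx3cr1 was lowest in dying replicate 1 (-3.34), and Ptprc was not well above background in either dying array. Of the 9, 7 and 8 were well above background in the dying arrays. Pyramidal neuron genes, 8 on the array with Grin1 adding most to the sums on average, were all well above background except Grik4 in dying replicate 1. They summed to 1906 and 1602 in dying, 2336 and 1790 in surviving and 4055 and 2990 in sham neurons, with naïve sums of 1794 and 2640 that overlap the injured groups. Their median difference between surviving and dying neurons was 1.499 over 8 tested genes and 0.35 without dying replicate 1, beside the 1.33 and 0.53 of the member probes.

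The 6 astrocyte genes on the array, with Slc1a3 adding most to the sums on average, summed to 976.5 in dying replicate 1 and 443.1 in dying replicate 2, 422.5 and 436.3 in surviving, 1196 and 771.3 in sham and 655.2 and 774.1 in naïve neurons. In dying replicate 1 this sum came mostly from Slc1a3 (9.87). Gfap (1.09 against 3.61) and Slc1a2 (2.48 against 2.955) were lower there than in dying replicate 2, and Slc1a3, Gja1, Aqp4 and S100b were higher. The 6 interneuron genes summed to 669.7 and 157.5 (dying), 163.7 and 146.7 (surviving), 414.5 and 393.8 (sham) and 312.3 and 452.5 (naïve). In dying replicate 1 this sum came mostly from Sst (8.48) and Vip (7.83). The 6 endothelial genes, with Vwf adding most to the sum in both dying arrays, summed to 248.8 and 122.2 (dying), 55.63 and 50.46 (surviving), 84.22 and 64.87 (sham) and 43.69 and 74.68 (naïve), and Tek was not well above background on any array. All 5 sums were higher in dying replicate 1 than in dying replicate 2, but 7 of the 8 pyramidal neuron genes were lower there, Grin1 being the exception: Nefl read 0.99 and 5.999 in the 2 dying arrays and Grik4 -1.08 and 4.96. Of the members, Mapk10, Map2k1, Mapk8ip3 A_44_P469069, Mapk8 A_44_P730454, Mapk14 A_44_P286911 and Mapk9 A_44_P480222 were also lowest in dying replicate 1. Of the 9 member probes well above background on all 4 injured arrays, 6 were lower there than in dying replicate 2. Map2k2, Mapk9 A_44_P217423 and Mapk14 A_43_P12479 were higher there. The part of these cells in the values of the members was not tested.

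**Figure D5:**
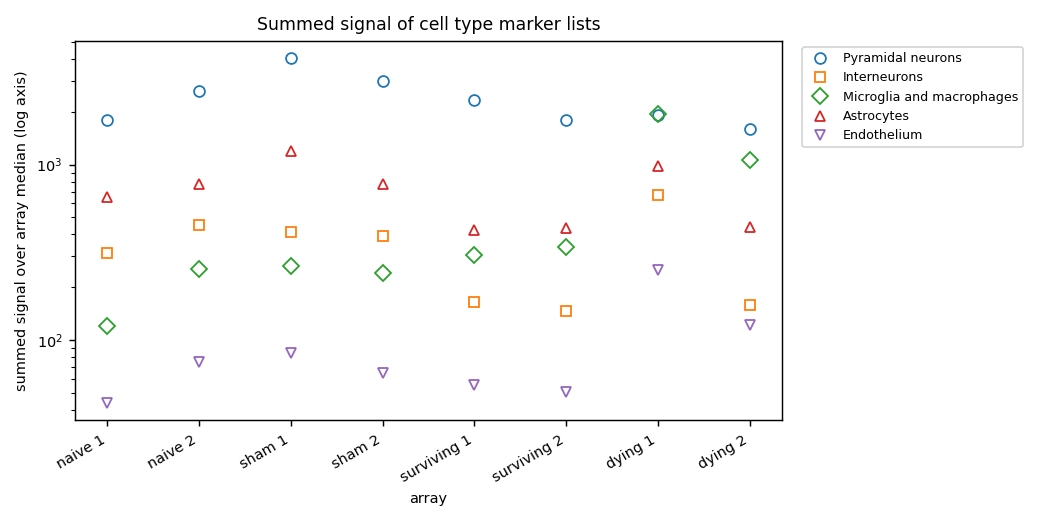
Summed signal over the array median of the listed marker genes of 5 cell types on each array (logarithmic vertical axis). The summed signal of the microglial list is highest in the 2 dying arrays, though not every gene of it is. Sums can be compared between arrays but not between lists.

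For the 7 members with a probe well above background on all 8 arrays the named gene nearest in profile was sought, by the mean absolute difference of centred log2 levels over 8 arrays. The nearest to Map2k2 was Eef1b2 (0.05, against a median of 0.54 over 6398 candidates), to Mapk14 Abi2 (0.07), to Mapk9 Flcn (0.10), to Map2k1 Hk1 (0.10) and to Mapk8 Dnajc6 (0.14). The nearest to Mapk8ip3 was Cabin1 (0.19) and to Mapk10 Ccnd2 (0.20), and the medians over candidates ran from 0.52 to 1.007. The values describe these arrays alone.

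RefSeq promoters (build GRCr8, 250 bases before to 50 after a gene's start) were found for 7 of the 9 members. They were searched on both strands for TGACGTCA, the cAMP response element bound by the CREB and ATF factors, and for TGANTCA. The latter pattern, with N any base, is wider than the element bound by Jun and Fos, which lie downstream of JNK and ERK. The first was in 1 of the 7 (Mapk10) and in 1.83% of all 33469 promoters, and the second in 1 of the 7 (Shc1) and in 7.33%. They are shown because factors of both families are targets of these kinases, with the motif in capitals.
Mapk10, chr14:6802206-6802233, plus strand: ctctgggcttTGACGTCAtgtgtgctcc
Shc1, chr2:177138424-177138450, plus strand: tctgagcctgTGAGTCAgcactgtcct
The motifs start 78 and 114 bases before the gene starts. A match describes the letters in this window, and binding was not measured.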

How the data were processed

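Gene names came from the array design. Per the file headers, the authors obtained the intensity values of each array in Agilent Feature Extraction 9.1.3.1, which subtracted background and detrended the array. As deposited, the signal values in the series table had been divided by a constant for each array by the authors, except for the dimmest probes. Their series values are higher than this division gives, and the lowest was 0.055 in dying replicate 1 and 0.024 in surviving replicate 1. The series values served as an alternative, in which differences of probes near background are therefore smaller. No spot was saturated. After non-uniform spots were dropped, the mean over the spots of each probe was taken and set over the array median, values under 0.01 were set to 0.01 and log2 was taken.

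Groups were fitted in limma 3.58.1 (R 4.3.3) over all 8 arrays, with 4 residual degrees of freedom before moderation; two-sided p-values received Benjamini-Hochberg adjustment within a comparison. The fit was tested on simulated data. Where no array of a group measured a probe well, a fold is a bound: the mean of the brighter group against the mean, over the arrays of the dimmer group, of the lowest signal well above background or the probe's own if higher. A p-value beside such a bound is that of the limma difference between the group means. The bound itself was not tested. The number of arrays limits the precision. The methods speak of biological replicates for dying and surviving neurons, the sources used do not say it of sham and naïve arrays, and p-values measure the spread between these arrays.

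The members and the lists were chosen with earlier results of these data known, so no set test was made. Genes named from the lists between surviving and dying neurons come from up to 3 of each list in each direction with the largest difference between surviving and dying neurons, well above background on all 4 arrays and not overlapping. The brightest probe by mean log2 stands for a gene in the lists. Neighbours in profile came from named RefSeq probes well above background wherever the member is. Of the planned lists of cell type markers, 1 is not reported here.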

Additional observations from a re-analysis of the deposited data

How the results depend on the processing

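Between surviving and dying neurons 0 member probes passed under each scaling, background filter, the fit within 1 slide and the replicate block (0), and 0 to 4 passed with 1 array left out, the 4 without dying replicate 2, where 5043 of 28210 probes passed in all. Their median difference was 0.53 to 1.84 with 1 array left out. Of the list genes 0 to 9 passed with 1 array left out, and 0 with probes of a gene averaged. Where the replicate filter asked the smaller replicate to be at least 50% of the larger, 1 member probe was over the 2-fold limit. No count over all probes is available to set beside it. Under the replicate filter with 1 array left out 0 to 3 were counted, against 1545 of 21453 to 6652 of 21721 probes in all. Non-overlapping member probes were 9 to 14 with 1 array left out, against 10386 to 13487 of all 27393 probes, since fewer arrays overlap less often.

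Between surviving neurons and sham 0 member probes passed with normexp (0 of 26909 probes in all) and with all 4 arrays above background (1608 of 18173). It was also 0 with the replicate block (2646 of 26909) and with the median of RefSeq probes as scale, chosen after seeing the data (3489 of 26909). The call of Mapk3 was also lost with any 1 array left out. Between dying neurons and sham 2 passed under quantile normalization (9278 of 25628 probes in all), 0 with normexp (0 in all), 3 with the series values (11433 of 25646), 5 with the replicate block (9124 of 25628; Mapk14 A_43_P12479 lost, Mapk9 A_44_P480222 gained) and 1 to 7 with 1 array left out (1798 of 26129 to 12517 of 26627). Between sham and naïve neurons the median of the members was 0.077 to 0.88 with 1 array left out and 0.095 under quantile normalization. Between dying neurons and sham it was -1.05 (75th percentile), -1.07 (quantile normalization), -0.83 (normexp) and -0.96 (series values), and -3.04 to -1.44 with 1 array left out. Between surviving neurons and sham it was 0.10, 0.14, 0.29 and 0.20 in the same order.

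The sign of single differences turned as follows, and the cause was not tested. Surviving minus dying: Mapk9 A_44_P217423 -0.002 (quantile normalization), -0.06 (RefSeq median) and -0.16 to 0.73 with 1 array left out; Mapk9 A_44_P480222 -0.028 (normexp); Mapk8ip3 A_44_P226771 -0.13 (RefSeq median); Map2k2 -0.32 (quantile normalization), -0.34 (RefSeq median) and -0.14 to 0.15 with 1 array left out; Mapk10 -0.044 to 3.65 with 1 array left out. Surviving minus sham under the 75th percentile, quantile normalization, normexp and series values: Mapk8ip3 A_44_P226771 0.29, 0.27, 0.29 and 0.40, and Map2k2 0.10, 0.14, 0.60 and 0.20. Mapk8ip3 A_44_P469069 gave -0.02 to 1.15 with 1 array left out. Dying minus sham: Mapk8ip3 A_44_P226771 0.019 (75th percentile) and 0.11 (series values); Map2k2 0.039 (75th percentile), 0.46 (quantile normalization) and 0.13 (series values). With 1 array left out Mapk10 gave -3.09 to 0.60 and Mapk14 A_44_P360409 -0.28 to 0.53.

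Among the differences of single probes, 497 alternative values kept the sign and the call, 8 were stronger, 32 weaker and 27 had the other sign. Mapk3 (surviving neurons and sham) and Mapk9 A_44_P451014 (dying neurons and sham) have no value where all 4 arrays must be above background. Replicate numbers are not stated to pair the samples: deviations of arrays with the same number correlated between -0.20 and 0.07 across probes, which are not independent. With the numbers of the dying arrays crossed, an alternative chosen after seeing the data, 0 member probes passed between surviving and dying neurons. A group left with 1 array is assumed to vary like the others. Probes near background are limited by their signal.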
